A study of Mus musculus with 55 samples.

Results

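The genes described here are those whose symbols mark them as microRNA genes or as small nucleolar or Cajal body RNA genes, taken as every row of the 2 deposited pre-mRNA tables whose symbol starts with Mir and a digit, Mirlet7, Snora, Snord or Scarna. The rule found 15 of the 9911 genes listed for CCNA-GFP cells and 17 of the 10237 listed for CTCF-AID cells, which makes 17 of the 10574 genes in either table. All of them are microRNA genes: 0 Snora, 0 Snord and 0 Scarna rows are listed in either table, although the mouse annotation used here (Gencode vM21) holds 150 genes of these kinds beside 1190 microRNA genes, so that the results below concern microRNA genes alone. The tables hold only curated RefSeq genes above a minimum level, so a missing row does not show a low level. Of the 17, 12 are hairpin genes, single-exon genes of 56 to 133 bp that span little more than the precursor hairpin, namely Mir20a, Mir34a, Mir101a, Mir290a, Mir294, Mir298, Mir421, Mir496a, Mir1946b, Mir3078, Mir7230 and Mirlet7d. The other 5 are long host transcripts of 3849 to 34378 bp, Mir17hg, Mir22hg and Mir9-3hg in both tables and Mir124a-1hg and Mir155hg in the CTCF-AID table only.

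The levels come from RNA-seq of mouse embryonic stem (ES) cells leaving mitosis, in 2 derivatives of the E14Tg2a line (129/Ola strain) grown with serum and LIF. CCNA-GFP cells carry a cell cycle reporter and gave 19 libraries, and CTCF-AID cells, a clonal line in which auxin triggers the degradation of CTCF, gave 36. Cells were held with the CDK1 inhibitor RO-3306 (10 µM, 4 h), then with the microtubule poison nocodazole (50 ng/ml, 4 h), and mitotic cells were shaken off and released. CCNA-GFP cells were sampled when asynchronous (3 libraries), in mitosis (3), at 20, 30, 40, 60, 90 and 120 min after release (2 each) and at 50 min (1, from replicate 3). CTCF-AID cells were sampled without IAA (18 libraries) and with IAA (18), in each arm when asynchronous (3), in mitosis (3) and at 20, 40, 50, 60, 90 and 120 min (2 each). IAA, an auxin, was given at 0.5 mM for the last 2 h in nocodazole and kept on during release. Asynchronous cells were treated in parallel for 4 h. Of 3 independent experiments, 1 was sequenced at every stage but 50 min in CCNA-GFP cells, and the remaining ones covered alternating stages.

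A few facts of the libraries bear on all values. Levels are TPM of the pre-mRNA isoform, a transcript abundance corrected for length and library size, and the depth behind a value is unknown because no read counts were used here. The listed TPM of a library summed to between 13747 and 42576 in CCNA-GFP cells and between 17702 and 43370 in CTCF-AID cells and the lowest sums were those of libraries from mitosis and 20 min. Of 6 ES cell markers, 5 were listed (Sox2 was not), with summed levels of 38.0 to 81.1 TPM in asynchronous CCNA-GFP cells and 45.4 to 103 TPM in asynchronous CTCF-AID cells. Of the feeder, endoderm, neural, trophoblast and mesoderm markers, Pax6 and T were listed in both tables and Col1a1, Thy1 and Cdx2 in the CTCF-AID table only, and T reached 5.18 TPM in 1 asynchronous CTCF-AID library. Ctcf pre-mRNA was 6.10 to 9.13 TPM in asynchronous CTCF-AID cells without IAA and 7.52 to 10.9 TPM with IAA, which is no check of the degradation because IAA acts on the protein.

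MicroRNAs are short RNAs that guide Argonaute proteins to messenger RNAs through their seed, the bases near the 5′ end. They are made from long primary transcripts of RNA polymerase II, from which the nuclear enzyme Drosha with its partner Dgcr8 cuts a hairpin, which Dicer then trims to the mature form. The hairpin can lie in an exon or an intron of its host transcript, and cutting destroys the host RNA at that place. In ES cells the cluster around miR-290 is among the best known, let-7 is held back by the Lin28 proteins and the cluster of Mir17hg is known for promoting proliferation. The libraries measured here do not capture mature microRNAs. A row for a hairpin gene therefore counts reads over the hairpin within a longer RNA, and these reads cannot be told apart from those of the host transcript or of an uncut primary transcript. A stranded protocol keeps antisense transcripts apart, but genes that overlap on the same strand share reads.

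The mature sequences below identify the microRNAs whose genes carry the results, in RefSeq coordinates of GRCm38.p6 (the assembly that mm10 names), with the seed, bases 2 to 8, in capitals. Of the 12 hairpin genes, 11 were matched in the RefSeq table, with 20 mature sequences and 20 distinct seeds.
miR-20a-5p: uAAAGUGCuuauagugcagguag
miR-290a-3p: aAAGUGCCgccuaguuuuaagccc
miR-294-3p: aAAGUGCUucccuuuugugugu
miR-34a-5p: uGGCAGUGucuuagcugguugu
let-7d-5p: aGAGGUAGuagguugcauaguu
miR-101a-3p: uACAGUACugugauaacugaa
miR-496a-3p: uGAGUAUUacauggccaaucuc
miR-421-5p: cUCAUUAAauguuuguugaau
miR-298-5p: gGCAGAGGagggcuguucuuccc
miR-1946b: gCCGGGCAgugguggcacaugcuuuu
The first 3 share the letters AAGUGC in their seeds, at different offsets, and 16 of the 1738 mature entries of the mouse table (0.921%) have a seed that holds them. The seed of miR-20a-5p is held by 7 entries of the table, itself included, among them miR-17-5p, miR-20b-5p, miR-93-5p and miR-106b-5p. Counted the same way, the seed of miR-294-3p is held by 5 entries, including miR-291a-3p, miR-295-3p and miR-302b-3p, the let-7d-5p seed by 13, and the miR-34a-5p seed by 4, with miR-34b-5p, miR-449a-5p and miR-449c-5p. Mir3078 was not matched and is given by name.

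The hairpins of Mir20a, Mir34a and Mir496a show how short the measured genes are, with both mature arms in capitals.
Mir20a: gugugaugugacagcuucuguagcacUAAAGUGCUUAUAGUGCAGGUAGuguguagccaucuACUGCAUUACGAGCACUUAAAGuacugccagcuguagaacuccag
Mir34a: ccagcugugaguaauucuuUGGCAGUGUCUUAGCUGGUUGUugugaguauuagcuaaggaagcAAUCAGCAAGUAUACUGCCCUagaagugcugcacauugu
Mir496a: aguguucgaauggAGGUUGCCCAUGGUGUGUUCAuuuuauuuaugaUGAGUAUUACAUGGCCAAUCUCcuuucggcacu

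Of the 17 genes, 6 lie within a longer gene on the same strand and 5 within one that is itself listed. Mir20a (mm10, chr14:115044157-115044263, plus strand) lies in an exon of Mir17hg (chr14:115042879-115046727). Mir101a (chr4:101346945-101347027, minus strand) lies in an exon of 1 of the 2 transcripts of the long non-coding RNA E130102H24Rik (chr4:101346531-101356735) and outside the other. Mir496a (chr12:109739119-109739197, plus strand) lies in an intron of 8 transcripts of Mirg (chr12:109729764-109749460), a non-coding RNA of the imprinted Dlk1 locus, and outside 4. Mir3078 (chr14:64591185-64591271, plus strand) lies in an exon of 1 transcript of Mir124a-1hg (chr14:64587331-64593961) and outside 3. Mir421 (chrX:103572921-103572996, minus strand) lies in an intron of 8 transcripts of Ftx (chrX:103560907-103623790), a non-coding RNA of the X inactivation centre, and outside 4. Mirlet7d (chr13:48536012-48536114, minus strand) lies in an exon of 6720427I07Rik, which has no row in either table. Mir34a (chr4:150068454-150068555, plus strand) overlaps Gm37795 on the same strand, and Mir22hg (chr11:75461539-75466676, plus strand) overlaps Tlcd2 on the same strand, so their reads cannot be told from those of these neighbours. Mir298 (chr2:174267504-174267585, minus strand) lies 16735 bp from Gnas and Mir1946b (chr9:21613444-21613576, minus strand) 2593 bp from Smarca4, both on the opposite strand.

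Per length, the host transcript Mir17hg was the most abundant of these genes, with a mean of 17.0 TPM over all CCNA-GFP libraries (rank 54 of 9911) and 17.5 TPM over all CTCF-AID libraries (rank 62 of 10237). Mir34a followed with means of 9.63 TPM (rank 300) and 9.37 TPM (rank 389). These means pool all stages. In mitotic CCNA-GFP cells Mir34a (2.40 TPM) lay below Mir298 (5.73) and Mirlet7d (3.02), and at 90 and 120 min it was at 23.8 and 29.0 TPM. Mir22hg (5.52 and 6.44 TPM), Mirlet7d (5.21 and 6.88), Mir101a (3.97 and 3.76), Mir298 (5.27 and 3.73) and Mir20a (3.38 and 3.82) formed the next group, whose order differed between the lines. The median level of the microRNA genes was 3.00 TPM in CCNA-GFP and 2.48 TPM in CTCF-AID cells, beside 1.66 and 1.89 TPM over all listed genes. The 12 hairpin genes span only 56 to 133 bp. Whether TPM of genes so short compares with that of longer genes was not tested, which limits these ranks and medians. The lowest levels were those of Mir9-3hg in CCNA-GFP cells (0.368 TPM) and of Mir290a in CTCF-AID cells (0.349 TPM). Values listed at 0 were found in 4 of 19 CCNA-GFP libraries for Mir20a and Mir290a, and in 14 of 36 CTCF-AID libraries for Mir124a-1hg, 7 for Mir20a and Mir290a and 5 for Mir421. The values of a library come in steps of 0.0184 to 0.0380 TPM, so smaller differences between low values are not resolved. A gene had to exceed 0.5 TPM when asynchronous, or else in 2 or more samples after mitosis, to be listed, and had to be among the curated RefSeq genes, and the level in mitosis played no part. Of the microRNA genes, 5 of 15 in CCNA-GFP cells (Mir20a, Mir290a, Mir294, Mir3078 and Mir9-3hg) and 7 of 17 in both arms of CTCF-AID cells (Mir20a, Mir294, Mir3078, Mir9-3hg, Mir124a-1hg, Mir155hg and Mir421) had a mitotic mean of 0.5 TPM or less, beside 26.7% and 19.4% of all listed genes. They are listed through stages where they were higher than in mitosis, so a higher level at such a stage is in part what selected them.

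When do these genes come back after mitosis? Each stage was compared with mitosis within a line and arm, by limma on log2(TPM + 1) with a replicate block, calling genes at an adjusted p under 0.05 (Benjamini-Hochberg, over every listed gene). All stages of an arm share the same mitotic libraries, so the counts at different stages are not independent. These are bulk samples, in which fewer cells with a transcript and less of it per cell cannot be told apart. At 20 min, 0 microRNA genes were called higher or lower in CCNA-GFP cells or in either arm of CTCF-AID cells, as were 0.0% of all genes. An unadjusted p under 0.05 was found for 2 of 15, 1 of 17 and 1 of 17 of them, beside 2.55%, 3.88% and 1.46% of all genes. At 30 min in CCNA-GFP cells the count was again 0, beside 0.303% of all genes called higher and 0.0% lower (2.48% higher with a pseudocount of 0.1 TPM), and 3 of 15 had an unadjusted p under 0.05, beside 11.5% of all genes. With the test limited to mean levels of 1 TPM or more, 1 of 10, Mir20a, was called higher at 30 min (adjusted p = 0.0171), beside 2.75% of all genes so tested.

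By 40 min, 7 of 15 were called higher and 0 lower in CCNA-GFP cells (all genes: 49.3% higher and 0.0404% lower), but 4 higher and 1 lower without replicate 1 (26.4% and 0.0605% of all genes), 4 and 0 without the replicate block (23.8% and 0.0101%), and 4 and 2 at the same total of listed TPM (23.7% and 31.3%). In CTCF-AID cells 10 of 17 were called higher and 2 lower without IAA (63.3% and 3.21%), and 10 higher and 1 lower with IAA (58.7% and 3.87%). Without replicate 3, 9 were higher and 0 lower without IAA (58.9% and 2.23%). At the same total, 8 were higher and 5 lower without IAA (33.3% and 36.7%), and 6 and 2 with IAA (33.2% and 38.6%). The members called higher at 40 min in all 3 series were Mir20a, Mir17hg, Mir22hg, Mir1946b, Mir3078, Mir7230 and Mir9-3hg. At 50 min, sampled with replicates in CTCF-AID cells, the counts were 10 higher and 2 lower without IAA (79.1% and 4.56% of all genes) and 10 higher and 1 lower with IAA (78.2% and 5.37%). Rescaled to the same total, these counts were 8 and 4 without IAA (40.7% and 33.6%) and 9 and 4 with IAA (41.0% and 35.5%).

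At 60 min, 12 of 15 were higher and 2 lower in CCNA-GFP cells (88.3% and 0.515% of all genes), 11 of 17 higher and 1 lower without IAA (84.8% and 2.7%), and 11 higher and 1 lower with IAA (82.2% and 4.04%). Their median log2 fold change was 1.05 in CCNA-GFP cells, 0.85 without IAA and 0.89 with IAA, beside 0.79, 0.63 and 0.63 over all genes. With every library rescaled to the same total of listed TPM, the median change of all genes at 60 min fell by 0.77, 0.58 and 0.57 on the log2 scale, and 6, 9 and 9 microRNA genes were higher (36.4%, 39.4% and 40.7% of all genes) and 3, 4 and 4 lower (33.3%, 31.1% and 33.2%), so the calls below are relative to the deposited scale unless the rescaled value is given. In the whole tables the same rescaling changed the split at 60 min from 8749 higher and 51 lower to 3607 and 3302 in CCNA-GFP cells, from 8677 and 276 to 4030 and 3181 without IAA, and from 8419 and 414 to 4162 and 3399 with IAA.

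Later stages gave 11 higher and 1 lower at 90 min in CCNA-GFP cells (89.1% and 0.948% of all genes), where 3 were lower without replicate 2 (0.888%) and 2 without replicate 1 (0.585%), 13 and 1 without IAA (74.8% and 3.37%) and 12 and 1 with IAA (73.8% and 4.41%). The count of higher genes without IAA was 8 without replicate 3 (50.4% of all genes), and 7, with 3 lower, at the same total (34.5% and 25.6%). At 120 min 12 were higher and 1 lower in CCNA-GFP cells (90.2% and 0.656%), 12 and 1 without IAA (69.6% and 3.15%), and 12 and 2 with IAA (68.2% and 4.42%). At the same total 6, 7 and 9 were higher (28.7%, 32.0% and 33.5% of all genes) and 1, 2 and 2 lower (23.5%, 25.9% and 28.7%) at 120 min, and without the replicate block 7 were higher without IAA (42.3%). In asynchronous cells 10 were higher and 2 lower than in mitosis in each of the 3 series, beside 70.4% and 1.97% of all genes in CCNA-GFP cells, 34.3% and 5.25% without IAA and 40.9% and 5.89% with IAA. The 2 lower ones were Mir290a and Mir496a in all 3. At the same total, 7 were higher and 1 lower in asynchronous CCNA-GFP cells (24.8% and 20.3% of all genes). In CTCF-AID cells the counts were then 10 and 2 without IAA (27.2% and 21.4%) and 10 and 2 with IAA (29.8% and 22.4%). Without replicate 3, the count of higher genes in asynchronous cells without IAA was 6 rather than 10, beside 17.3% of all genes.

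**Figure D1:**
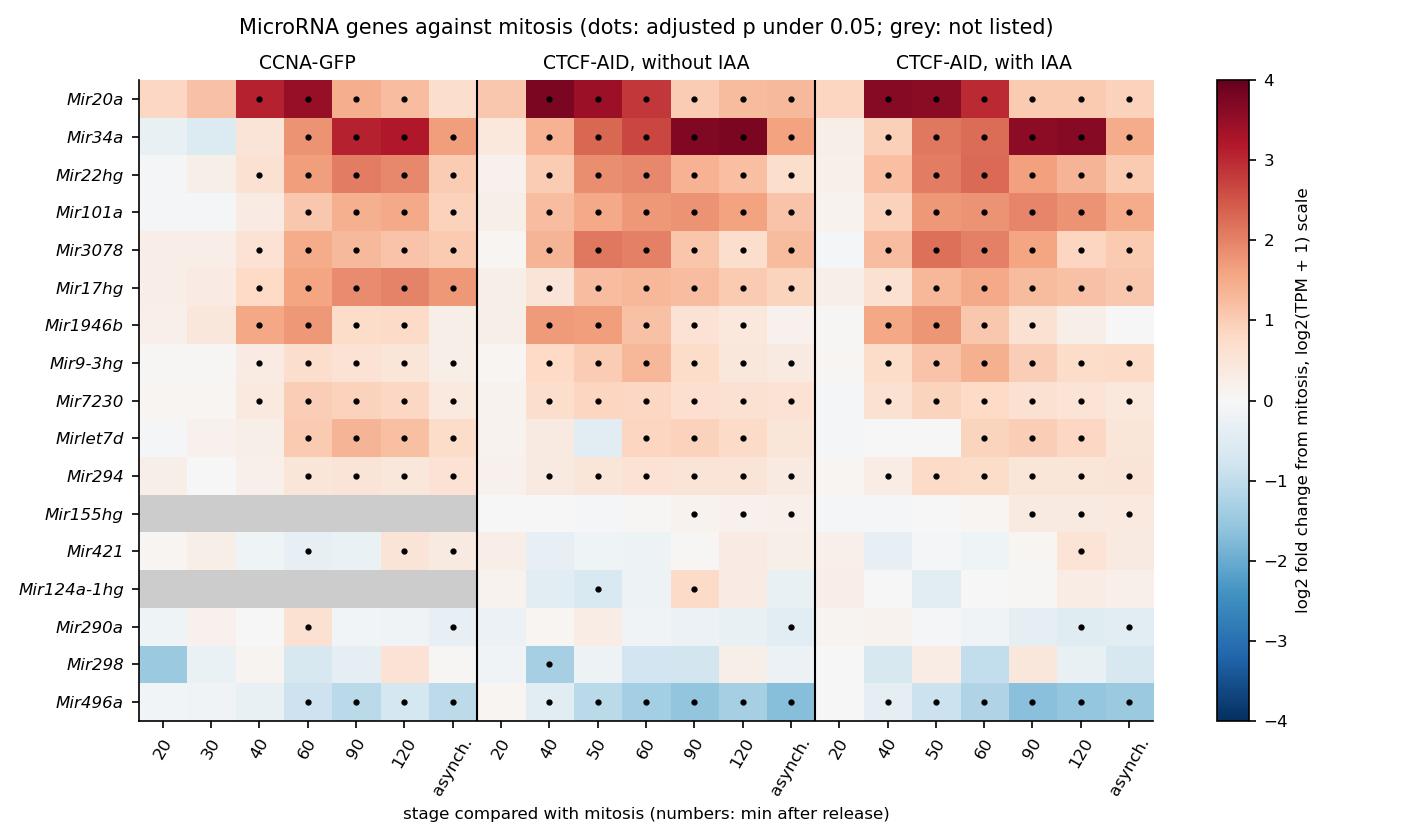
Log2 fold change from mitosis of log2(TPM + 1) for each microRNA gene (rows) at each replicated stage (columns), in CCNA-GFP cells and in each arm of the CTCF-AID line. Dots mark an adjusted p under 0.05 and grey marks a gene that is not listed; no dot stands at 20 min, Mir20a has the largest change at 60 min in CCNA-GFP cells and without IAA, Mir34a at 120 min in all 3 series, and Mir496a is lower than in mitosis from 60 min on; the mitotic libraries of Mir20a with IAA are listed at 0, so its colour there gives no fold.

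The stage of the highest mean level differed among the genes. In CCNA-GFP cells, 4 of 15 were highest at each of 50, 90 and 120 min, and 1 each at 60 min, when asynchronous and in mitosis. Without IAA 5 of 17 were highest at each of 50 and 60 min, 3 at 120 min, and 1 each at 20, 40 and 90 min and when asynchronous. With IAA, 5 of 17 were highest at 50 min, 3 each at 60, 90 and 120 min, and 1 each at 20 and 40 min and when asynchronous. Of all genes in CCNA-GFP cells, the shares highest at 50, 60, 90 and 120 min were 21.7%, 23.0%, 37.1% and 7.31%, with 10.4% highest when asynchronous and 0.0605% in mitosis. The shares for the same 4 times were 48.1%, 18.0%, 17.1% and 5.08% without IAA, and 51.2%, 15.2%, 16.2% and 5.81% with IAA. At 20 and 40 min and when asynchronous they were 0.254%, 2.25% and 8.08% without IAA, and 0.225%, 1.38% and 8.11% with IAA. These are descriptions of means over 1 to 3 libraries.

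Among these genes, the largest change at 40 and 60 min belonged to Mir20a, the hairpin of miR-20a, in an exon of Mir17hg, and it was transient. Its pre-mRNA level was at or near 0 in mitosis, reached 4.72 to 14.1 TPM between 40 and 60 min and came back to 3.61 TPM or less from 90 min on in every library. In CCNA-GFP cells, Mir20a was listed at 0, 0.299 and 0 TPM in mitosis, 2.20 and 0 at 20 min, 2.92 and 0.932 at 30 min, 8.17 and 6.73 at 40 min, 12.2 at 50 min, 10.5 and 9.65 at 60 min, 1.44 and 3.61 at 90 min, 1.17 and 1.56 at 120 min, and 0.696, 0 and 2.21 in asynchronous cells. Without IAA, Mir20a was listed at 0.0870, 0 and 0 TPM in mitosis, 2.68 and 0 at 20 min, 13.7 and 9.20 at 40 min, 10.7 and 12.3 at 50 min, 4.72 and 6.31 at 60 min, 0.701 and 2.26 at 90 min, 1.12 and 1.23 at 120 min, and 1.26, 0.760 and 2.92 in asynchronous cells. With IAA, Mir20a was listed at 0, 0 and 0 TPM in mitosis, 1.16 and 0.202 at 20 min, 11.4 and 8.97 at 40 min, 11.7 and 14.1 at 50 min, 5.31 and 6.87 at 60 min, 1.08 and 1.60 at 90 min, 0.579 and 1.09 at 120 min, and 1.16, 0 and 2.16 in asynchronous cells. All libraries at 40, 50 and 60 min stood above every library in mitosis, at 90 and 120 min and in asynchronous cells, in each of the 3 series. At 20 and 30 min the replicates differed: replicate 1 was already above 1 TPM at 20 min in all 3 series, while replicate 2 was listed at 0, 0 and 0.202 TPM.

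The log2 fold change of Mir20a from mitosis in CCNA-GFP cells was 3.08 ± 0.39 (SE) at 40 min, with an adjusted p of 2.99e-06 by limma, 3.47 ± 0.39 at 60 min (5.29e-08), then 1.46 and 1.24 at 90 and 120 min (0.00141 and 0.00516), and 0.69 in asynchronous cells (0.0707), where the groups overlapped. Without IAA it was 3.76 ± 0.36 at 40 min (5.14e-09), 3.43 and 2.83 at 50 and 60 min (5.13e-09 and 1.14e-07), 1.02 and 1.26 at 90 and 120 min, and 1.28 in asynchronous cells (0.00266), where the call was lost without replicate 3 (0.94, adjusted p = 0.108), as was the one at 90 min without replicate 3 (0.54, 0.365) or 1 (1.35, 0.053). With IAA, all 3 mitotic libraries of Mir20a are listed at 0, so that no fold change is given, and the limma call was higher at every stage from 40 min on and in asynchronous cells (adjusted p from 1.8e-09 to 0.0199), though the calls at 90 min and in asynchronous cells were lost without replicate 1 or 3 and that at 120 min without replicate 3, and without the replicate block those at 120 min and in asynchronous cells were lost. Among all 9911 genes of the CCNA-GFP table, its change ranked 2 at 40 min and 1 at 60 min, then 485 at 90 min and 796 at 120 min. Among the 10237 genes of the CTCF-AID table without IAA it ranked 2 at 40 min, 1 at 50 min and 3 at 60 min, but 642 at 90 min. These changes are on the log2(TPM + 1) scale, which understates the change of low values. Rescaling the libraries to the same total left the calls of Mir20a at 40 and 60 min in place, with changes of 3.12 and 2.85 in CCNA-GFP cells and 3.64 and 2.44 without IAA, and ended those at 90 and 120 min in CCNA-GFP cells (1.02 and 0.91, adjusted p of 0.132 and 0.189) and at 90 min without IAA (0.88, adjusted p = 0.0534).

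Mir17hg, the primary transcript of the cluster, was also higher from 40 min on and remained so at 120 min. In CCNA-GFP cells, Mir17hg was listed at 5.75, 7.77 and 6.13 TPM in mitosis, 8.35 and 8.70 at 20 min, 8.42 and 7.59 at 30 min, 13.2 and 12.4 at 40 min, 16.1 at 50 min, 23.9 and 20.9 at 60 min, 26.4 and 24.2 at 90 min, 28.7 and 31.3 at 120 min, and 22.9, 30.5 and 20.1 in asynchronous cells. Without IAA, Mir17hg was listed at 10.0, 10.6 and 7.53 TPM in mitosis, 14.3 and 10.2 at 20 min, 16.7 and 13.4 at 40 min, 25.4 and 20.1 at 50 min, 27.8 and 26.3 at 60 min, 22.7 and 22.3 at 90 min, 21.7 and 22.8 at 120 min, and 20.5, 20.2 and 14.7 in asynchronous cells. With IAA, Mir17hg was listed at 8.13, 9.66 and 6.46 TPM in mitosis, 10.7 and 10.0 at 20 min, 15.8 and 11.9 at 40 min, 24.8 and 17.1 at 50 min, 26.4 and 26.8 at 60 min, 21.7 and 18.1 at 90 min, 19.2 and 22.2 at 120 min, and 17.6, 21.6 and 15.6 in asynchronous cells. Libraries at 60 min and later stood above all mitotic libraries of the same series. Its log2 fold change at 40 min was 0.80 ± 0.14 in CCNA-GFP cells (adjusted p = 9.4e-05), 0.52 ± 0.13 without IAA (0.00155) and 0.60 ± 0.13 with IAA (0.000437), the first of which was not called without replicate 1 (0.54, 0.0721), and at 60 min 1.57, 1.33 and 1.51. It was still 1.97, 1.06 and 1.16 at 120 min and 1.74, 0.90 and 1.09 in asynchronous cells. With the libraries rescaled to the same total, the change at 40 min was 0.26 in CCNA-GFP cells and -0.07 without IAA, neither called (adjusted p of 0.0892 and 0.572), while the calls at 60 min held at 0.31 and 0.40; with IAA the 2 values were 0.05 (not called) and 0.58.

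The level of Mir20a per Mir17hg in the same library followed the same course. In CCNA-GFP cells the mean ratio of their TPM was 0.013 in mitosis, 0.582 at 40 min (0.545 to 0.619) and 0.758 in the 1 library of 50 min. It was 0.451 at 60 min (0.439 to 0.462), then 0.102 and 0.045 at 90 and 120 min, and 0.047 in asynchronous cells. Without IAA the ratio was 0.754, 0.516 and 0.205 at 40, 50 and 60 min, 0.066 and 0.053 at 90 and 120 min, and 0.0995 in asynchronous cells. With IAA it was 0.737, 0.649 and 0.229, then 0.069 and 0.040, and 0.068 in asynchronous cells. In every series the mean ratio was thus highest at 40 or 50 min and no more than 0.102 from 90 min on. The other hairpins of the cluster, Mir17, Mir18, Mir19a, Mir19b-1 and Mir92-1, have no row in either table, so no comparison along the cluster was made.

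**Figure D2:**
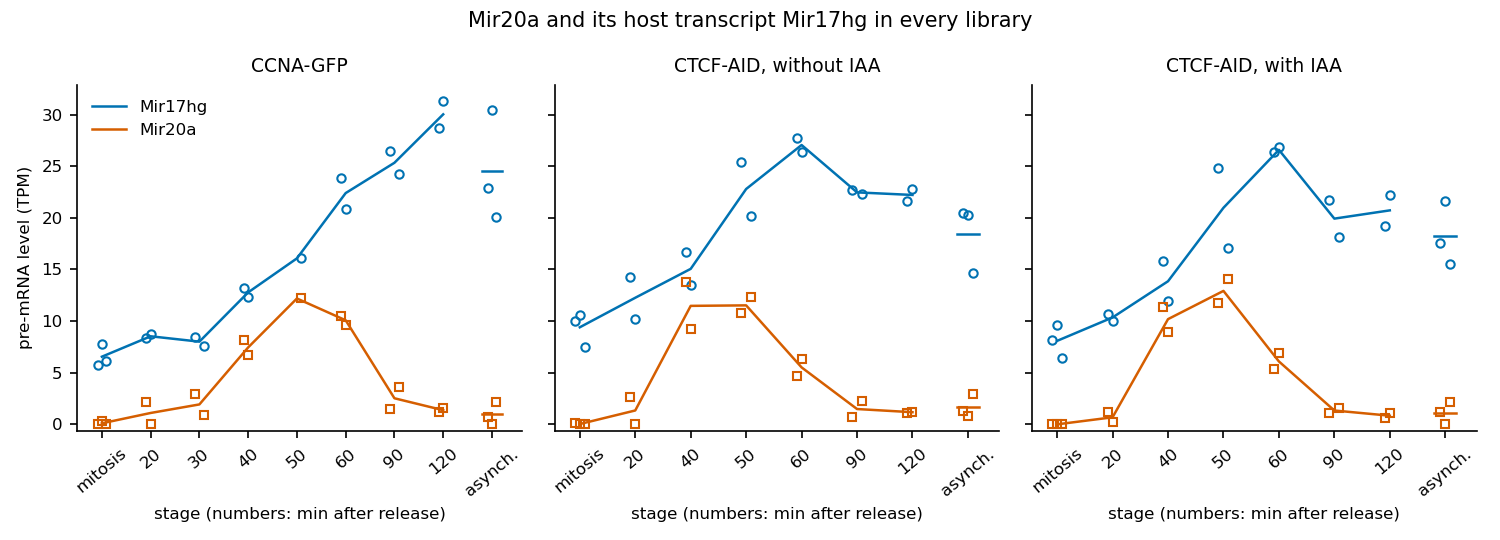
Pre-mRNA level (TPM) of Mir20a and of its host transcript Mir17hg at each stage in CCNA-GFP cells and in each arm of the CTCF-AID line; points are single libraries and lines join the means. Mir20a peaks between 40 and 60 min and is at or under 3.61 TPM from 90 min on, while Mir17hg stays at or above 18.1 TPM at 60, 90 and 120 min.

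Mir34a, the gene of a microRNA known as a target of p53, was highest at 120 min in the mean of each series. In CCNA-GFP cells, Mir34a was listed at 0.662, 4.05 and 2.47 TPM in mitosis, 0.943 and 2.60 at 20 min, 1.97 and 0.320 at 30 min, 3.29 and 4.05 at 40 min, 8.67 at 50 min, 15.2 and 6.72 at 60 min, 25.0 and 22.5 at 90 min, 30.2 and 27.7 at 120 min, and 8.01, 9.10 and 9.48 in asynchronous cells. Without IAA, Mir34a was listed at 0.783, 2.15 and 0.466 TPM in mitosis, 1.96 and 1.69 at 20 min, 5.54 and 3.75 at 40 min, 10.1 and 7.46 at 50 min, 15.3 and 10.2 at 60 min, 20.3 and 29.2 at 90 min, 26.0 and 29.8 at 120 min, and 5.04, 5.26 and 5.04 in asynchronous cells. With IAA, Mir34a was listed at 1.51, 1.37 and 0.383 TPM in mitosis, 1.42 and 1.62 at 20 min, 3.73 and 2.56 at 40 min, 8.77 and 6.43 at 50 min, 11.4 and 6.99 at 60 min, 19.0 and 25.9 at 90 min, 20.9 and 31.0 at 120 min, and 4.29, 5.38 and 4.43 in asynchronous cells. The libraries at 90 and 120 min lay between 19.0 and 31.0 TPM and stood above every other library of Mir34a in all 3 series. At 30 min in CCNA-GFP cells, 1 library was lower than any mitotic one, at 0.320 TPM. Against mitosis, Mir34a changed by 1.79 ± 0.37 (log2) at 60 min in CCNA-GFP cells (adjusted p = 0.000143), 3.09 ± 0.37 at 90 min (1.96e-07) and 3.21 ± 0.37 at 120 min (2.08e-07), and 1.68 ± 0.32 in asynchronous cells (0.000196). Without IAA it was 1.39, 2.67, 3.69 and 3.76 ± 0.28 at 40, 60, 90 and 120 min (1.46e-10 for the last), and with IAA 0.95, 2.23, 3.56 and 3.64 ± 0.28 (1.78e-10). At 120 min its change ranked 3 of 9911 genes in CCNA-GFP cells, and 1 and 2 of 10237 without and with IAA. With libraries rescaled to the same total the change at 120 min was 2.29, 3.39 and 3.27, all called, but that at 60 min in CCNA-GFP cells (0.71, adjusted p = 0.206) and that at 40 min with IAA (0.57, 0.0575) were not. Without replicate 1, the calls of Mir34a at 40 min were lost in both arms of CTCF-AID cells (0.88 and 0.71, adjusted p of 0.0544 and 0.102).

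Mir22hg, the host of miR-22, had its highest mean at 90 min in CCNA-GFP cells, at 50 min without IAA and at 60 min with IAA. In CCNA-GFP cells, Mir22hg was listed at 1.81, 1.56 and 2.98 TPM in mitosis, 1.68 and 1.71 at 20 min, 2.80 and 2.93 at 30 min, 3.97 and 2.82 at 40 min, 5.55 at 50 min, 10.7 and 5.98 at 60 min, 12.5 and 12.7 at 90 min, 10.3 and 9.10 at 120 min, and 4.26, 5.28 and 6.16 in asynchronous cells. Without IAA, Mir22hg was listed at 2.85, 2.05 and 2.28 TPM in mitosis, 3.47 and 2.11 at 20 min, 7.79 and 4.17 at 40 min, 12.6 and 11.1 at 50 min, 12.8 and 10.5 at 60 min, 7.54 and 9.03 at 90 min, 6.91 and 6.29 at 120 min, and 4.22, 4.39 and 4.94 in asynchronous cells. With IAA, Mir22hg was listed at 2.00, 1.64 and 2.21 TPM in mitosis, 2.50 and 2.13 at 20 min, 6.45 and 5.06 at 40 min, 13.0 and 10.7 at 50 min, 14.1 and 11.8 at 60 min, 8.56 and 8.75 at 90 min, 6.46 and 6.29 at 120 min, and 4.82, 5.30 and 5.11 in asynchronous cells. In mitosis every library was at 2.98 TPM or less, and at 60 min every library was at 5.98 TPM or more. Its log2 fold change at 60 min was 1.67 ± 0.17 in CCNA-GFP cells (adjusted p = 1.23e-08), 1.92 ± 0.14 without IAA (1.78e-11) and 2.26 ± 0.14 with IAA (1.68e-12), and in asynchronous cells 1.02, 0.71 and 1.05. These calls held with the libraries rescaled to the same total, at 0.60, 1.12 and 1.47 at 60 min. Tlcd2, which overlaps Mir22hg on the same strand, has a row of its own in the tables.

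Mirlet7d, the gene of let-7d, which Lin28a and Lin28b block at the precursor stage in ES cells, was measured at 2.11 TPM or more in every library. In CCNA-GFP cells, Mirlet7d was listed at 2.61, 3.16 and 3.29 TPM in mitosis, 2.34 and 3.34 at 20 min, 3.78 and 3.28 at 30 min, 2.74 and 4.81 at 40 min, 2.54 at 50 min, 9.55 and 5.41 at 60 min, 9.01 and 9.56 at 90 min, 8.55 and 7.85 at 120 min, and 5.31, 5.78 and 6.02 in asynchronous cells. Without IAA, Mirlet7d was listed at 4.76, 4.93 and 4.63 TPM in mitosis, 5.96 and 5.16 at 20 min, 9.29 and 4.78 at 40 min, 5.03 and 2.11 at 50 min, 12.01 and 7.99 at 60 min, 9.66 and 10.2 at 90 min, 8.56 and 9.95 at 120 min, and 6.40, 6.76 and 7.91 in asynchronous cells. With IAA, Mirlet7d was listed at 4.53, 4.17 and 4.86 TPM in mitosis, 4.60 and 4.22 at 20 min, 3.91 and 5.54 at 40 min, 8.54 and 2.34 at 50 min, 12.6 and 7.26 at 60 min, 9.71 and 10.6 at 90 min, 8.24 and 10.2 at 120 min, and 5.84, 7.40 and 7.12 in asynchronous cells. At 50 min the replicates without and with IAA disagreed (5.03 and 2.11 TPM, 8.54 and 2.34 TPM), whereas at 90 and 120 min all were above every mitotic library. At 60 min the log2 fold change of Mirlet7d was 1.05 ± 0.19 in CCNA-GFP cells (adjusted p = 3.69e-05), 0.85 ± 0.30 without IAA (0.00979) and 0.89 ± 0.30 with IAA (0.00734). Relative to the same total it was -0.08, -0.0010 and 0.04, none of them called. In asynchronous cells it was 0.74 in CCNA-GFP cells (adjusted p = 0.000763) and 0.47 and 0.49 without and with IAA, not called (0.156 and 0.125).

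Mir101a, whose microRNA is known for targeting Ezh2, rose in all 3 series. In CCNA-GFP cells, Mir101a was listed at 2.16, 1.93 and 1.60 TPM in mitosis, 1.99 and 1.52 at 20 min, 2.23 and 1.68 at 30 min, 3.03 and 2.36 at 40 min, 3.70 at 50 min, 6.62 and 3.92 at 60 min, 7.79 and 6.31 at 90 min, 7.38 and 7.48 at 120 min, and 4.96, 3.62 and 5.09 in asynchronous cells. Without IAA, Mir101a was listed at 1.13, 1.27 and 0.647 TPM in mitosis, 1.57 and 1.27 at 20 min, 4.30 and 3.56 at 40 min, 4.91 and 4.29 at 50 min, 6.16 and 5.72 at 60 min, 5.50 and 6.29 at 90 min, 4.86 and 5.81 at 120 min, and 3.90, 3.52 and 2.92 in asynchronous cells. With IAA, Mir101a was listed at 0.979, 0.907 and 0.676 TPM in mitosis, 1.36 and 0.920 at 20 min, 2.20 and 3.05 at 40 min, 5.62 and 4.49 at 50 min, 5.81 and 5.61 at 60 min, 6.25 and 5.96 at 90 min, 5.15 and 6.09 at 120 min, and 4.37, 3.95 and 4.31 in asynchronous cells. From 60 min on, all libraries stood above all mitotic ones. The log2 fold change of Mir101a at 60 min was 1.07 ± 0.14 in CCNA-GFP cells (adjusted p = 4.55e-07), 1.75 ± 0.12 without IAA (1.96e-11) and 1.81 ± 0.12 with IAA (8.16e-12), and in asynchronous cells 0.93, 1.15 and 1.49. Rescaled to the same total, the change in CCNA-GFP cells at 60 min was 0.03 and not called, while those at 90 and 120 min (0.48 and 0.63) and those in CTCF-AID cells at 60 min (1.06 and 1.15) were called.

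E130102H24Rik, the non-coding RNA that contains Mir101a, was lower in CTCF-AID cells at 60 min than in mitosis. In CCNA-GFP cells, E130102H24Rik was listed at 0.279, 0.698 and 1.07 TPM in mitosis, 1.08 and 1.28 at 20 min, 1.34 and 1.25 at 30 min, 0.452 and 0.787 at 40 min, 0 at 50 min, 0.342 and 0.424 at 60 min, 0.577 and 0 at 90 min, 0 and 0 at 120 min, and 0, 0.0922 and 0 in asynchronous cells. Without IAA, E130102H24Rik was listed at 1.57, 1.17 and 1.86 TPM in mitosis, 1.46 and 1.17 at 20 min, 0.305 and 0.0245 at 40 min, 0.2997 and 0.338 at 50 min, 0 and 0 at 60 min, 0 and 0 at 90 min, 0.365 and 0 at 120 min, and 0.576, 0.1303 and 1.30 in asynchronous cells. With IAA, E130102H24Rik was listed at 1.17, 1.35 and 1.73 TPM in mitosis, 0.986 and 1.35 at 20 min, 1.36 and 0.177 at 40 min, 0 and 0.257 at 50 min, 0 and 0 at 60 min, 0 and 0.534 at 90 min, 0 and 0.422 at 120 min, and 0.374, 0 and 0 in asynchronous cells. In CTCF-AID cells both libraries at 60 min of each arm were listed at 0 and every mitotic library was above 1 TPM. Mir101a and E130102H24Rik share the reads over the hairpin, so their levels are not separate measurements there. E130102H24Rik was called lower at 60 min without IAA (adjusted p = 1.98e-05) and with IAA (4e-05), and in CCNA-GFP cells at 90 and 120 min (0.0391 and 0.000202), where the call at 90 min was lost and its sign turned without replicate 3 (0.19, 0.14). At 60 min in CCNA-GFP cells its log2 fold change was -0.27 ± 0.16 and not called (0.11), though called without replicate 1 (-0.36, 0.0235) or 2 (-0.28, 0.0108), and within replicates the change of Mir101a exceeded it by 1.10 ± 0.14 (SD, n = 2), or by 1.47 with a pseudocount of 0.1 TPM.

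**Figure D3:**
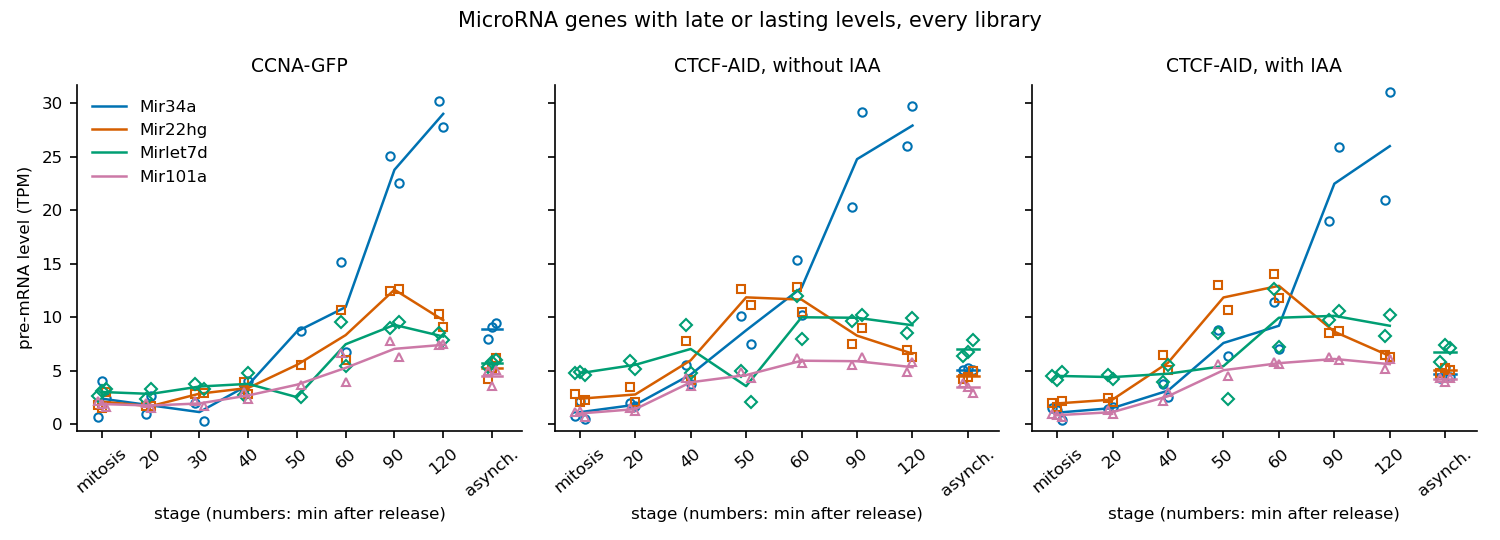
Pre-mRNA level (TPM) of Mir34a, Mir22hg, Mirlet7d and Mir101a at each stage, in CCNA-GFP cells and in each arm of the CTCF-AID line; points are single libraries and lines join the means. Mir34a reaches 19.0 to 31.0 TPM at 90 and 120 min in every library, and Mir22hg goes from 2.98 TPM or less in mitosis to 5.98 TPM or more at 60 min.

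Mir1946b, a hairpin gene near Smarca4, was called higher at 40 and 60 min in all 3 series and in asynchronous cells in none. In CCNA-GFP cells, Mir1946b was listed at 1.25, 1.13 and 1.21 TPM in mitosis, 1.54 and 1.30 at 20 min, 2.00 and 2.16 at 30 min, 5.91 and 4.40 at 40 min, 8.51 at 50 min, 5.63 and 6.47 at 60 min, 2.05 and 3.63 at 90 min, 2.42 and 2.69 at 120 min, and 1.62, 1.43 and 1.69 in asynchronous cells. Without IAA, Mir1946b was listed at 1.11, 0.635 and 0.673 TPM in mitosis, 1.62 and 0.726 at 20 min, 6.78 and 3.48 at 40 min, 4.82 and 5.15 at 50 min, 3.15 and 2.97 at 60 min, 1.80 and 1.79 at 90 min, 1.57 and 1.26 at 120 min, and 1.54, 0.717 and 0.887 in asynchronous cells. With IAA, Mir1946b was listed at 0.937, 0.956 and 0.811 TPM in mitosis, 0.876 and 1.10 at 20 min, 5.07 and 4.11 at 40 min, 5.6 and 5.80 at 50 min, 3.16 and 2.88 at 60 min, 1.82 and 2.16 at 90 min, 1.27 and 1.24 at 120 min, and 1.24, 0.867 and 0.719 in asynchronous cells. At 40 min and at 60 min every library stood above every mitotic library. It changed by 1.54 ± 0.14 (log2) at 40 min and 1.74 ± 0.14 at 60 min in CCNA-GFP cells (adjusted p of 1.24e-07 and 6.6e-10), 1.71 ± 0.15 and 1.17 ± 0.15 without IAA (2.22e-09 and 1.97e-07), and 1.55 ± 0.15 and 1.07 ± 0.15 with IAA (9.27e-09 and 7.39e-07). In asynchronous cells it was 0.23, 0.17 and 0.02, not called in any series (adjusted p of 0.0887, 0.327 and 0.907). All calls at 40 and 60 min held with the libraries rescaled to the same total (1.21 and 0.79, 1.37 and 0.58, 1.22 and 0.47).

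Mir3078, within the host of the neuronal microRNA miR-124, was at 0.608 TPM or less in every mitotic library and rose after release. In CCNA-GFP cells, Mir3078 was listed at 0.105, 0.0996 and 0.0281 TPM in mitosis, 0.349 and 0.0651 at 20 min, 0.477 and 0.426 at 30 min, 0.807 and 0.208 at 40 min, 1.82 at 50 min, 2.63 and 1.10 at 60 min, 1.55 and 2.51 at 90 min, 1.69 and 0.813 at 120 min, and 1.28, 0.553 and 2.03 in asynchronous cells. Without IAA, Mir3078 was listed at 0.435, 0.391 and 0.466 TPM in mitosis, 0.546 and 0.234 at 20 min, 3.82 and 1.35 at 40 min, 6.23 and 6.63 at 50 min, 6.21 and 2.82 at 60 min, 2.70 and 2.61 at 90 min, 2.58 and 0.224 at 120 min, and 2.94, 1.02 and 4.00 in asynchronous cells. With IAA, Mir3078 was listed at 0.341, 0.221 and 0.608 TPM in mitosis, 0.460 and 0 at 20 min, 3.00 and 1.17 at 40 min, 7.05 and 6.17 at 50 min, 5.31 and 3.13 at 60 min, 3.41 and 4.41 at 90 min, 1.69 and 0.919 at 120 min, and 2.83, 0.694 and 2.67 in asynchronous cells. At 60 min each library stood above all mitotic libraries of its series, and at 120 min 1 library without IAA was below every mitotic one. At 60 min Mir3078 had a log2 fold change of 1.47 ± 0.16 in CCNA-GFP cells (adjusted p = 3.8e-08), 2.02 ± 0.23 without IAA (1.65e-08) and 2.03 ± 0.23 with IAA (1.43e-08). The calls at 60 min held with the libraries rescaled to the same total, at 1.02, 1.48 and 1.53.

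Its host Mir124a-1hg, listed for CTCF-AID cells only, ranged from 0 to 2.16 TPM. Without IAA, Mir124a-1hg was listed at 0.739, 0 and 0.518 TPM in mitosis, 0.851 and 0.164 at 20 min, 0 and 0 at 40 min, 0 and 0 at 50 min, 0.337 and 0 at 60 min, 1.10 and 2.16 at 90 min, 0.365 and 1.01 at 120 min, and 0.446, 0 and 0 in asynchronous cells. With IAA, Mir124a-1hg was listed at 0.532, 0 and 0.248 TPM in mitosis, 0.570 and 0.292 at 20 min, 0.467 and 0 at 40 min, 0 and 0 at 50 min, 0.409 and 0 at 60 min, 0.427 and 0.394 at 90 min, 1.14 and 0 at 120 min, and 0.531, 0.193 and 0.590 in asynchronous cells. Mir124a-1hg was listed at 0 in 1 of 3 mitotic libraries of each arm and in both libraries at 50 min of each arm, and its log2 fold change at 60 min was -0.20 ± 0.22 without IAA (adjusted p = 0.39) and -0.01 ± 0.22 with IAA (0.978). It was called lower at 50 min and higher at 90 min without IAA (adjusted p of 0.0144 and 0.00301). The high level at 90 min without IAA helped to list Mir124a-1hg, so the call at 90 min was in part fixed by the filter. The call at 50 min was lost without the replicate block (adjusted p = 0.137) and without replicate 3 (0.0714), and that at 90 min without replicate 3 (0.45, 0.218) and at the same total (0.51, 0.0626).

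Mir496a, in an intron of Mirg, was the one hairpin gene called lower than in mitosis in all 3 series at 60, 90 and 120 min and in asynchronous cells. In CCNA-GFP cells, Mir496a was listed at 1.88, 2.19 and 1.88 TPM in mitosis, 1.64 and 2.06 at 20 min, 1.49 and 1.78 at 30 min, 1.16 and 1.80 at 40 min, 1.19 at 50 min, 0.495 and 0.990 at 60 min, 0.252 and 0.546 at 90 min, 1.03 and 0.688 at 120 min, and 1.22, 0.207 and 0.145 in asynchronous cells. Without IAA, Mir496a was listed at 1.81, 3.81 and 2.85 TPM in mitosis, 2.64 and 3.70 at 20 min, 1.57 and 2.40 at 40 min, 0.646 and 0.520 at 50 min, 0.270 and 0.828 at 60 min, 0.131 and 0.105 at 90 min, 0.228 and 0.978 at 120 min, and 0, 0.543 and 0 in asynchronous cells. With IAA, Mir496a was listed at 2.55, 3.92 and 2.52 TPM in mitosis, 2.69 and 3.50 at 20 min, 1.85 and 2.72 at 40 min, 0.803 and 1.05 at 50 min, 0.431 and 1.26 at 60 min, 0.202 and 0 at 90 min, 0 and 1.02 at 120 min, and 0.413, 0.540 and 0.332 in asynchronous cells. Every library at 60, 90 and 120 min and in asynchronous cells was under every mitotic library of its series. At 60 min the log2 fold change of Mir496a was -0.82 ± 0.21 in CCNA-GFP cells (adjusted p = 0.000973), -1.37 ± 0.13 without IAA (2.1e-09) and -1.21 ± 0.13 with IAA (1.32e-08), at 90 min -1.07, -1.57 and -1.68, and in asynchronous cells -1.04, -1.69 and -1.47. Counted from the lowest, it ranked 2, 1 and 2 among all genes at 60 min and 1, 1 and 1 at 90 min. Rescaling to the same total made these changes larger, at -1.56, -1.89 and -1.81 at 60 min.

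Mirg itself fell and then rose above its mitotic level. In CCNA-GFP cells, Mirg was listed at 1.32, 2.23 and 1.41 TPM in mitosis, 1.22 and 1.87 at 20 min, 1.02 and 1.38 at 30 min, 0.904 and 1.34 at 40 min, 0.846 at 50 min, 0.533 and 0.742 at 60 min, 1.44 and 0.683 at 90 min, 5.03 and 6.69 at 120 min, and 5.69, 7.44 and 7.93 in asynchronous cells. Without IAA, Mirg was listed at 3.09, 3.17 and 2.12 TPM in mitosis, 2.29 and 2.60 at 20 min, 1.00 and 1.77 at 40 min, 0.830 and 0.520 at 50 min, 0.855 and 1.02 at 60 min, 2.04 and 2.55 at 90 min, 4.18 and 6.29 at 120 min, and 5.75, 6.78 and 5.77 in asynchronous cells. With IAA, Mirg was listed at 2.45, 2.94 and 2.34 TPM in mitosis, 2.19 and 2.29 at 20 min, 1.16 and 1.52 at 40 min, 0.574 and 0.514 at 50 min, 0.454 and 0.665 at 60 min, 1.57 and 1.62 at 90 min, 4.34 and 6.56 at 120 min, and 5.55, 6.46 and 5.13 in asynchronous cells. The 120 min and asynchronous libraries of Mirg all stood above every mitotic library, and the 60 min libraries under every one. Its log2 fold change was -0.72 ± 0.15, -1.02 ± 0.11 and -1.26 ± 0.11 at 60 min in CCNA-GFP cells, without IAA and with IAA (adjusted p of 0.000124, 5.92e-09 and 1.88e-10). It was 1.34, 0.65 and 0.77 at 120 min and 1.60, 0.91 and 0.91 in asynchronous cells, called higher in each. Rescaled to the same total, the change at 120 min was 0.49, 0.20 and 0.32, the second not called (limma adjusted p = 0.0567). The rescaled changes at 60 min (-1.45, -1.64 and -1.84) and in asynchronous cells (1.22, 0.80 and 0.76) were all called.

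Up to 40 min, the mean TPM ratio of Mir496a to Mirg lay between 1.04 and 1.69, and at 60 min it was 1.13 in CCNA-GFP cells, 0.563 without IAA and 1.42 with IAA. In the same order it was 0.488, 0.053 and 0.064 at 90 min, 0.154, 0.105 and 0.078 at 120 min and 0.087, 0.027 and 0.074 in asynchronous cells. Within replicates, the change of Mir496a minus that of Mirg was -0.07 ± 0.39 (SD, n = 2), -0.18 ± 0.25 (SD, n = 2) and 0.03 ± 0.13 (SD, n = 2) at 60 min, and -2.03 ± 0.21 (SD, n = 2), -1.81 ± 0.39 (SD, n = 2) and -2.34 ± 0.17 (SD, n = 2) at 120 min.

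**Figure D4:**
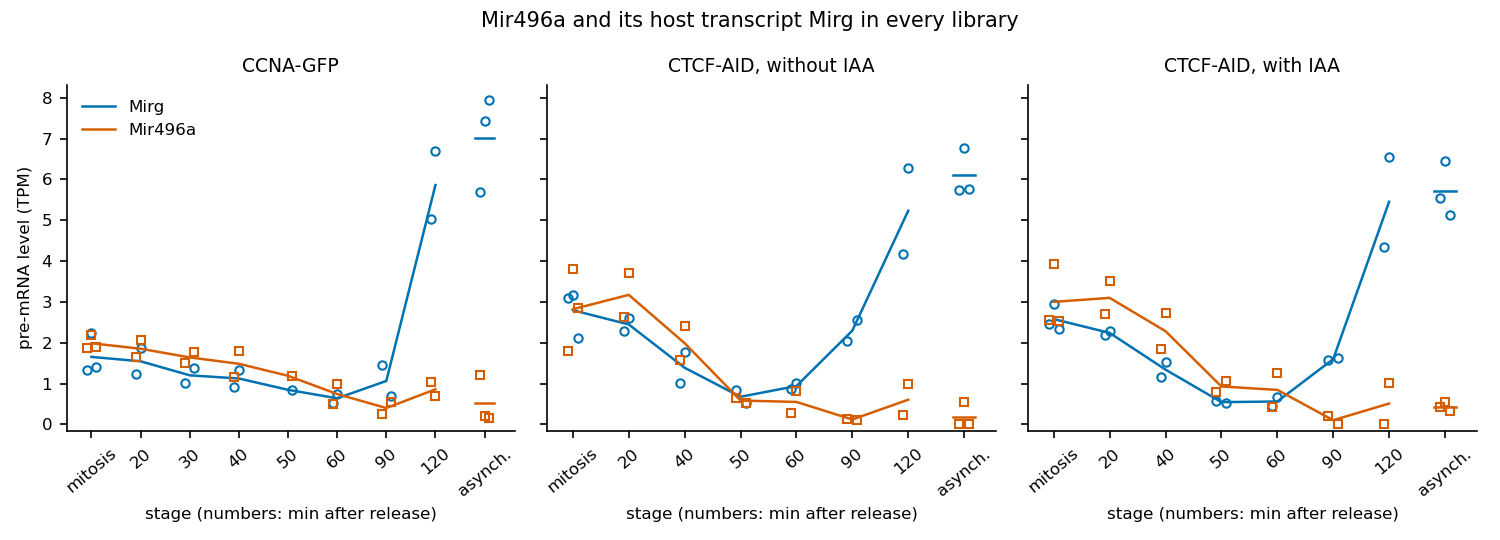
Pre-mRNA level (TPM) of Mir496a and of Mirg, the non-coding RNA whose span contains it, at each stage in CCNA-GFP cells and in each arm of the CTCF-AID line; points are single libraries and lines join the means. Both are lower at 60 min than in mitosis, and at 120 min Mirg is at 4.18 TPM or more in every library while Mir496a is at 1.03 TPM or less.

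Mir421, in an intron of Ftx, gave no call that the 3 series shared. In CCNA-GFP cells, Mir421 was listed at 0.348, 1.56 and 0.647 TPM in mitosis, 0.734 and 1.65 at 20 min, 0.858 and 0.719 at 30 min, 0.710 and 0.902 at 40 min, 0 at 50 min, 0.266 and 1.03 at 60 min, 0.613 and 0 at 90 min, 1.32 and 2.53 at 120 min, and 1.07, 2.33 and 0.727 in asynchronous cells. Without IAA, Mir421 was listed at 0.109, 0.561 and 0.336 TPM in mitosis, 0.371 and 1.08 at 20 min, 0.240 and 0 at 40 min, 0.0461 and 0.156 at 50 min, 0.292 and 0.170 at 60 min, 0.482 and 0.132 at 90 min, 1.05 and 0.531 at 120 min, and 0.502, 0.891 and 0.359 in asynchronous cells. With IAA, Mir421 was listed at 0.341, 0.221 and 0 TPM in mitosis, 0.197 and 0.718 at 20 min, 0 and 0 at 40 min, 0.0918 and 0.0234 at 50 min, 0.0908 and 0.148 at 60 min, 0.359 and 0 at 90 min, 0.512 and 1.17 at 120 min, and 0.551, 0.790 and 0.258 in asynchronous cells. The groups overlapped at 60 min in each series. Its change from mitosis at 60 min (log2) was -0.33 ± 0.14 in CCNA-GFP cells (adjusted p = 0.0386), -0.19 ± 0.18 without IAA (0.315) and -0.16 ± 0.18 with IAA (0.399), and the call in CCNA-GFP cells was lost without the replicate block (-0.16, adjusted p = 0.645), without replicate 3 (-0.21, 0.133) and with a pseudocount of 0.1 TPM (-0.77, 0.133). Without replicate 1, the change without IAA was -0.49 and called (0.00356). Mir421 was called higher at 120 min in CCNA-GFP cells (0.51, adjusted p = 0.00264) and with IAA (0.53, 0.0114), and in asynchronous CCNA-GFP cells (0.36, 0.0166). The call with IAA was lost without replicate 2 (0.30, 0.191) and that in asynchronous cells without replicate 1 (0.22, 0.0881) and without the replicate block (0.268). With the libraries rescaled to the same total these changes were -0.10, 0.39 and 0.09, none of them called.

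Ftx, in contrast, was called higher at 60 min than in mitosis on the deposited scale, but not at the same total. In CCNA-GFP cells, Ftx was listed at 1.39, 1.83 and 1.46 TPM in mitosis, 1.43 and 1.84 at 20 min, 1.62 and 1.49 at 30 min, 1.71 and 1.83 at 40 min, 2.27 at 50 min, 3.54 and 2.72 at 60 min, 3.75 and 4.34 at 90 min, 3.52 and 4.50 at 120 min, and 1.77, 3.59 and 2.67 in asynchronous cells. Without IAA, Ftx was listed at 1.15, 1.73 and 1.24 TPM in mitosis, 1.35 and 1.62 at 20 min, 1.81 and 1.99 at 40 min, 2.42 and 2.57 at 50 min, 2.72 and 2.80 at 60 min, 2.48 and 3.05 at 90 min, 2.49 and 3.41 at 120 min, and 1.62, 2.06 and 1.74 in asynchronous cells. With IAA, Ftx was listed at 1.32, 1.74 and 1.15 TPM in mitosis, 1.14 and 1.64 at 20 min, 1.53 and 1.79 at 40 min, 2.25 and 2.52 at 50 min, 2.41 and 2.86 at 60 min, 2.25 and 3.201 at 90 min, 2.23 and 3.70 at 120 min, and 1.65, 2.10 and 1.73 in asynchronous cells. At 60 min all libraries of Ftx stood above the mitotic ones, with a log2 fold change of 0.68 ± 0.15 in CCNA-GFP cells (adjusted p = 0.000253), 0.66 ± 0.09 without IAA (6.09e-07) and 0.59 ± 0.09 with IAA (3.12e-06), beside medians of 0.79, 0.63 and 0.63 over all genes. With the libraries rescaled to the same total, Ftx was called lower in CCNA-GFP cells (-0.28, adjusted p = 0.045) and not called without IAA (-0.0041, 0.969) or with IAA (-0.078, 0.409). Within replicates, the change of Mir421 minus that of Ftx was -0.87 ± 0.20 (SD, n = 2), -0.73 ± 0.23 (SD, n = 2) and -0.72 ± 0.19 (SD, n = 2) at 60 min, and with a pseudocount of 0.1 TPM -1.34, -1.11 and -1.54.

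Mir298, near the imprinted gene Gnas, varied widely between replicates of a stage. In CCNA-GFP cells, Mir298 was listed at 5.09, 4.12 and 7.98 TPM in mitosis, 0 and 2.26 at 20 min, 4.20 and 7.54 at 30 min, 9.04 and 1.90 at 40 min, 7.19 at 50 min, 4.79 and 0.813 at 60 min, 2.52 and 9.67 at 90 min, 5.54 and 7.44 at 120 min, and 6.09, 2.60 and 11.3 in asynchronous cells. Without IAA, Mir298 was listed at 3.94, 5.15 and 5.18 TPM in mitosis, 4.26 and 3.16 at 20 min, 0.0654 and 2.82 at 40 min, 5.10 and 3.33 at 50 min, 0.990 and 3.63 at 60 min, 0.635 and 6.71 at 90 min, 4.33 and 5.67 at 120 min, and 3.33, 2.91 and 5.66 in asynchronous cells. With IAA, Mir298 was listed at 2.75, 4.80 and 5.63 TPM in mitosis, 4.58 and 2.99 at 20 min, 4.00 and 0.817 at 40 min, 5.35 and 5.96 at 50 min, 1.82 and 0.960 at 60 min, 5.32 and 7.72 at 90 min, 1.18 and 5.64 at 120 min, and 4.07, 0.809 and 3.15 in asynchronous cells. Its standard error was 0.47 in CCNA-GFP cells and 0.56 in CTCF-AID cells at 60 min, the largest among the microRNA genes. The 60 min changes were -0.63 in CCNA-GFP cells (adjusted p = 0.212), -0.75 without IAA (0.206) and -0.997 with IAA (0.099). A single call was made over all stages and series, lower at 40 min without IAA (-1.34 ± 0.56, 0.0381), and it was lost without replicate 1 (-0.42, 0.354) and without replicate 3 (-1.45, 0.0568). At 60 min Mir298 was called lower without replicate 1 in CCNA-GFP cells (-1.26) and with IAA (-1.39), and without replicate 2 without IAA (-1.23, 0.0492). With the libraries rescaled to the same total, Mir298 was called lower at 60 min in all 3 series (-1.72, -1.48 and -1.70, adjusted p of 0.0299, 0.0197 and 0.00797).

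The pair from the miR-290 cluster of ES cells was low throughout. Mir290a (chr7:3218626-3218708, plus strand) overlaps Mir290b, and Mir294 (chr7:3220641-3220724, plus strand) overlaps Nlrp12, each on the opposite strand. In CCNA-GFP cells, Mir290a was listed at 0.453, 0 and 0.590 TPM in mitosis, 0.0699 and 0.1302 at 20 min, 0.445 and 0.772 at 30 min, 0.549 and 0 at 40 min, 1.56 at 50 min, 0.913 and 0.813 at 60 min, 0.0721 and 0.601 at 90 min, 0.0734 and 0.188 at 120 min, and 0.174, 0 and 0 in asynchronous cells. Without IAA, Mir290a was listed at 0.500, 0.464 and 0.595 TPM in mitosis, 0.327 and 0.141 at 20 min, 0.393 and 0.687 at 40 min, 0.692 and 1.09 at 50 min, 0.135 and 0.487 at 60 min, 0.175 and 0.421 at 90 min, 0.205 and 0.168 at 120 min, and 0, 0.174 and 0.226 in asynchronous cells. With IAA, Mir290a was listed at 0.660, 0.319 and 0.428 TPM in mitosis, 0.570 and 0.426 at 20 min, 0.467 and 0.619 at 40 min, 0 and 1.03 at 50 min, 0.363 and 0.148 at 60 min, 0 and 0.348 at 90 min, 0 and 0 at 120 min, and 0, 0.289 and 0 in asynchronous cells. Mir290a did not exceed 1.56 TPM in any library, and asynchronous libraries were listed at 0 to 0.289 TPM. It was called lower in asynchronous cells than in mitosis in all 3 series (-0.33 ± 0.13, -0.43 ± 0.15 and -0.43 ± 0.15, adjusted p of 0.0339, 0.0311 and 0.0273), with overlapping groups in CCNA-GFP cells. Without the replicate block all 3 calls were lost (adjusted p of 0.124, 0.106 and 0.0878), and leaving out replicate 3 in CCNA-GFP cells (-0.15, 0.332), replicate 1 or 2 without IAA (0.07 for each) or replicate 1 or 3 with IAA (0.113 and 0.0624) ended them too. It was called higher at 60 min in CCNA-GFP cells (0.60 ± 0.15, adjusted p = 0.00112), 1 of the 3 stages, with 30 and 50 min, whose means above 0.5 TPM list it in that table, but not in CTCF-AID cells, and not after rescaling to the same total (0.20, adjusted p = 0.432). Mir294 went the other way in asynchronous cells, with a log2 fold change of 0.59, 0.37 and 0.53, each called higher (the second not without replicate 3, adjusted p = 0.1, or without the replicate block, 0.0728), and lay between 0 and 1.13 TPM in all libraries.

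Among the remaining genes, Mir7230 ranged from 0.875 to 5.41 TPM and was called higher at every stage from 40 min on and in asynchronous cells in all 3 series, but its change at 60 min after rescaling to the same total was 0.03, 0.18 and 0.13, not called. Without the replicate block, its calls at 40 min and in asynchronous cells in all 3 series, and those at 60 and 120 min in CTCF-AID cells, were lost. Mir9-3hg, the host of the neural microRNA miR-9, rose from 0.0664 to 0.360 TPM in mitosis to 0.707 to 2.76 TPM at 60 min, with a log2 fold change of 0.71, 1.34 and 1.41, and it was called at 60 min after rescaling too (0.40, 0.94 and 0.99). In the CCNA-GFP table its mean exceeded 0.5 TPM at 50, 60 and 90 min only, the stages that list it, so its call at 60 min there was in part fixed by the filter. It shares its strand and span with A330074H02Rik, 2900037B21Rik and Gm37608. Mir155hg, the host of miR-155, a microRNA known from immune cells, was low (0.182 to 0.774 TPM) and late in CTCF-AID cells. It was called higher at 90 and 120 min and in asynchronous cells, by 0.14, 0.18 and 0.22 without IAA and by 0.34, 0.35 and 0.39 with IAA. Its mean exceeded 0.5 TPM in asynchronous cells of both arms and, with IAA only, at 90 and 120 min. These stages list it, so its calls there were in part fixed by the filter. The calls without IAA were each lost on leaving out 1 replicate, at 90 min replicate 1 or 3 (adjusted p of 0.49 and 0.0902), at 120 min replicate 2 (0.0954) and in asynchronous cells replicate 3 (0.0601). At 60 min its change was 0.04 and 0.08, not called, and -0.21 and -0.20 after rescaling to the same total, called lower (adjusted p of 0.00141 and 0.00262).

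Does losing CTCF change these levels? Both arms were compared stage by stage in 1 limma fit that held no block, and a call needed an adjusted p under 0.1 together with a log2 difference larger than 0.2 in size. A combined set holds the genes called in asynchronous cells or at 2 or more stages after mitosis. Of the 17 microRNA genes, 0 were called at any stage and 0 in the combined set, beside 1.1% of all 10237 genes (113) in the combined set. With the replicate as a block, Mir9-3hg and Mir155hg entered the combined set, which was then larger too, as given below. Of all genes, 0.0% were called higher and 0.0% lower in mitosis and at 20 and 40 min, 0.0879% and 0.195% at 50 min, 0.0586% and 0.166% at 60 min, 0.176% and 0.557% at 90 min, 0.127% and 0.459% at 120 min, and 0.313% and 0.694% in asynchronous cells. Without replicate 1 the combined set held 0 genes and no stage had more than 1 call over all genes in either direction, while the set held 80 genes without replicate 2 and 55 without replicate 3. An unadjusted p under 0.05 was found for 0 of them in mitosis, at 20, 50 and 60 min, for 1 at 40 min, 2 at 90 min, 1 at 120 min and 2 in asynchronous cells, beside 0.83%, 2.4%, 2.1% and 2.79% of all genes at these 4 stages and 0.225% to 1.94% at the others. The fitted differences ran from -0.87 for Mir124a-1hg to 1.06 ± 0.63 for Mir298, both at 90 min.

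For Mir20a the log2 difference with against without IAA was -0.14, 0.15 and 0.12 at 40, 50 and 60 min, each ± 0.46 (SE), and -0.40 ± 0.37 in asynchronous cells. The arms overlapped at each of these stages. Within replicates the +IAA library was lower in every pair at 40 min and in asynchronous cells, and higher in every pair at 50 and 60 min. Mir20a was called at none of these stages, with or without the replicate block. For Mir101a it was -0.45 ± 0.16 at 40 min (limma unadjusted p = 0.00853, not called after adjustment), with both +IAA libraries (2.20 and 3.05 TPM) under both −IAA libraries (4.30 and 3.56 TPM).

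The lowest adjusted p among the microRNA genes belonged to Mir9-3hg in asynchronous cells (0.319). There Mir9-3hg was at 0.502, 0.369 and 0.925 TPM without IAA and at 1.06, 1.00 and 1.55 TPM with IAA, higher in 3 of 3 pairs and without overlap, a log2 difference of 0.47 ± 0.15. Mir155hg was at 0.409, 0.565 and 0.547 TPM without IAA and at 0.708, 0.713 and 0.774 TPM with IAA, also higher in 3 of 3 pairs and without overlap, a difference of 0.20 ± 0.07 (adjusted p = 0.482). At 90 min Mir155hg was at 0.416 and 0.369 TPM without and at 0.629 and 0.650 TPM with IAA (0.24 ± 0.09, adjusted p = 0.711). The mean of Mir155hg exceeded 0.5 TPM at 90 min with IAA only, and in asynchronous cells in both arms (0.507 and 0.732 TPM). Its higher +IAA levels thus helped to list it, so these differences were in part fixed by the filter.

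Equal replicate numbers were taken to mark the same experiment in both arms, and with the replicate as a block both genes were called. The adjusted p of Mir9-3hg in asynchronous cells was then 0.038, and that of Mir155hg was 0.0224 in asynchronous cells and 0.044 at 90 min, which put 2 microRNA genes among 269 genes of the combined set. Mir124a-1hg at 90 min, at 1.10 and 2.16 TPM without and 0.427 and 0.394 TPM with IAA, had a blocked adjusted p of 0.0759 and was called at this stage alone. Its mean exceeded 0.5 TPM at 20, 90 and 120 min without IAA, but only at 120 min with IAA. The high −IAA level at 90 min thus helped to list it, so this difference was in part fixed by the filter. After rescaling to the same total, without the block, Mir9-3hg was the 1 microRNA gene called (0.53, adjusted p = 0.0142), among 205 genes.

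An interaction term then set the mean difference between arms from 20 to 60 min against the one of asynchronous cells. It was called for 0 of the 17 microRNA genes at an adjusted p of 0.1, beside 0.0195% of all genes higher (2 genes) and 0.0% lower. An unadjusted p under 0.05 was found for 2 of the 17, Mir101a (-0.38) and Mir9-3hg (-0.40), beside 1.14% of all genes, and neither passed the adjustment. Released and asynchronous cells also differed in the length of IAA treatment, which this term does not separate from the stage.

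**Figure D5:**
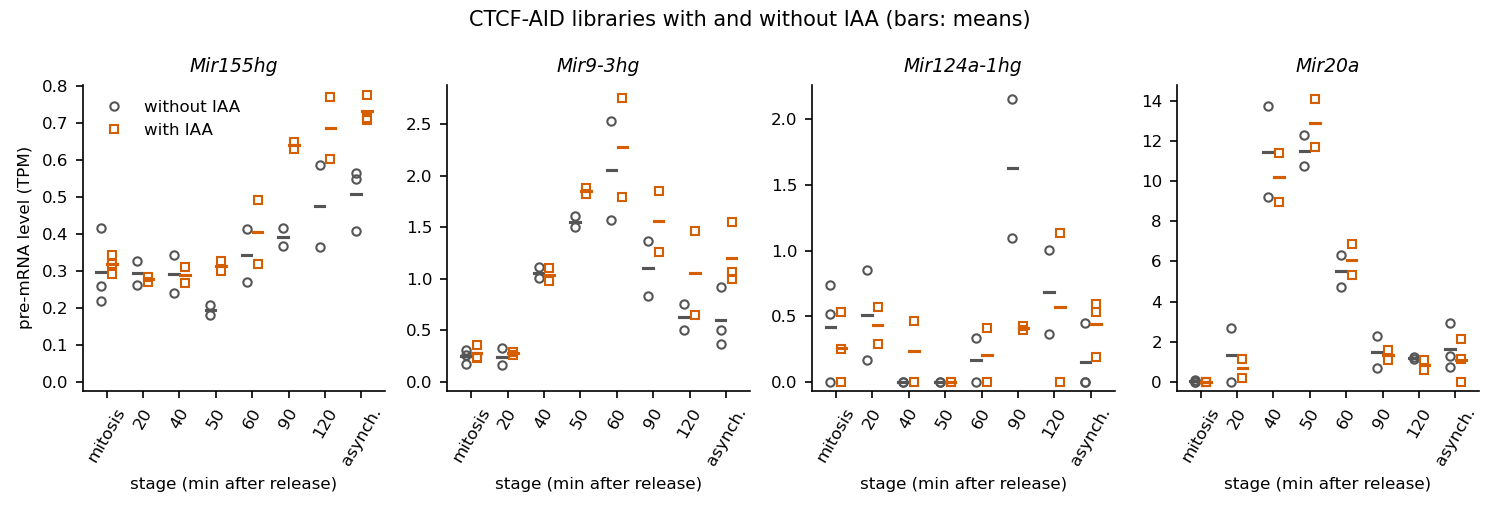
Pre-mRNA level (TPM) of Mir155hg, Mir9-3hg, Mir124a-1hg and Mir20a in both arms of the CTCF-AID line at each stage; points are single libraries and bars mark means. In asynchronous cells the +IAA libraries of Mir155hg (0.708 to 0.774 TPM) and Mir9-3hg (1.00 to 1.55 TPM) lie above all −IAA libraries, and the arms of Mir20a overlap at 40, 50 and 60 min.

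The genes of microRNA processing and action gave the setting for these levels. Of 16 such genes, 14 were listed, and 14 were called higher and 0 lower than in mitosis at 60 min in CCNA-GFP cells, 10 and 0 without IAA and 10 and 0 with IAA, beside 88.3%, 84.8% and 82.2% of all genes called higher. Their median log2 fold change was 0.68, 0.52 and 0.46, beside 0.79, 0.63 and 0.63 over all genes. The largest changes were those of Ran, the GTPase that powers export of the hairpin precursor (1.98, 1.43 and 1.59), and of the Argonaute gene Ago1 (1.49, 1.08 and 1.02). Drosha (0.46, 0.13 and 0.02) and Tnrc6c, a partner of Argonaute in silencing (0.36, 0.19 and 0.02), were among the smallest, and so was Lin28a without IAA (0.11). Of these, the changes of Drosha, Tnrc6c and Lin28a in CTCF-AID cells were not called. In asynchronous cells 11 of 14 were called higher and 0 lower in CCNA-GFP cells, but 2 and 2 without IAA and 2 and 1 with IAA, beside 70.4%, 34.3% and 40.9% of all genes called higher and 1.97%, 5.25% and 5.89% lower.

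Although no small nucleolar RNA was listed, 17 of 20 protein genes of their ribonucleoproteins were. At 60 min 16 were called higher and 0 lower in CCNA-GFP cells, 14 and 0 without IAA, and 14 and 1 with IAA, near the 88.3%, 84.8% and 82.2% of all genes called higher (0.515%, 2.7% and 4.04% lower), with a median log2 fold change of 1.03, 0.61 and 0.69. Wrap53, which guides small Cajal body RNAs to Cajal bodies, had the largest change in each series (2.09, 2.10 and 2.07), followed by Nolc1 in CCNA-GFP cells (1.55) and by Znhit3, an assembly factor, in CTCF-AID cells (1.35 and 1.34). Parn, a poly(A) nuclease that trims small RNAs, had the smallest (0.06, -0.10 and -0.23, called lower with IAA, adjusted p = 0.0048), then Shq1 in CCNA-GFP cells and with IAA (0.29 and 0.08) and Nop58, a core protein of C/D small nucleolar ribonucleoproteins, without IAA (0.14). In asynchronous cells 11 of 17 were called higher and 0 lower in CCNA-GFP cells, and 2 higher and 3 lower in either arm of CTCF-AID cells, beside the same 70.4%, 34.3% and 40.9% higher and 1.97%, 5.25% and 5.89% lower. With against without IAA, 0 genes of either list were called by limma at any stage. Of all genes, no more than 0.313% were called higher and 0.694% lower at a stage, so 0 is near that share.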

How the data were processed

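RNA-seq of CCNA-GFP (19 libraries) and CTCF-AID cells (36 libraries) was ribosomal RNA-depleted, stranded and paired-end. The authors aligned reads to mm10 with STAR and estimated TPM with RSEM on Gencode vM12 with a pre-mRNA isoform added for each gene, and deposited pre-mRNA TPM per library after leaving out genes at 0.5 TPM or less in asynchronous cells and in all but 1 sample after mitosis, and genes outside the curated RefSeq set. The tool versions are not given in the sources used here. The deposited TPM of a library are whole multiples of 1 step (100% of low values within 0.05 step), the same for genes of all lengths, so they are rounded and scaled by a factor that the sources do not name, and read counts were not used here. Because the tables hold only genes that passed the filter and their totals differ between stages, changes are relative to the deposited scale, and a same-total rescaling was run as an alternative. The 2 tables were normalized separately, so no test crosses them.

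Tests were run on log2(TPM + 1) in R 4.3.3 with the trend option of limma 3.58.1, p-values were adjusted over each whole table by the Benjamini-Hochberg method, and tables and figures used Python 3.11.15, numpy 2.4.6, pandas 2.3.3 and matplotlib 3.10.9. A fold change is on the log2(TPM + 1) scale. The 50 min CCNA-GFP library entered no test. Every column was mapped to a sample or group. Equal replicate numbers were taken to mark the same experiment, which the methods of the study do not state across arms. Deviations from group means of same-numbered libraries correlated at r over 0.1 in 7 of 7 pairs of groups in CCNA-GFP cells. In CTCF-AID cells such deviations did so in 13 of 14 pairs of groups and in 8 of 8 pairs of arms. The members and gene lists were chosen with earlier results of these data known. Values in every library are given for Mir20a, the 6 members with the highest mean level, the 3 with the largest and the 3 with the smallest change at 60 min in a table, and the host genes of these. Of 200 genes given a simulated log2 change of 1, 99%, 98% and 89% were recovered at 60 min in CCNA-GFP cells, with IAA and between arms. All other genes were left unchanged and no smaller change was simulated. These shares therefore do not give the recovery of smaller differences between arms. Alternatives were a pseudocount of 0.1, the same total, a mean of at least 1 TPM, the other block setting and leaving out each replicate.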

Additional observations from a re-analysis of the deposited data

How the results depend on the processing

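Changes of the microRNA genes at 60 min and in asynchronous cells, and their differences from host genes at 60 min, were recomputed 670 times under the alternatives. Of these, 591 kept their direction and side of the threshold or stayed within the spread, 45 lost a call, 17 gained one, 12 differences between a gene and its host moved with the pseudocount of 0.1 TPM, and 5 reversed, all with libraries rescaled to the same total. The reversed ones were Mirlet7d at 60 min (-0.077 in CCNA-GFP cells and -0.0010 without IAA), Mir7230 in asynchronous CCNA-GFP cells (-0.0068) and Mir155hg at 60 min (-0.21 without and -0.20 with IAA). At other stages, calls whose sign turned at the same total were those of Mir17hg at 40 min without IAA (-0.073), Mir7230 at 40 min (-0.0063), Mir1946b at 90 min (-0.046) and Mir421 at 120 min (-0.098) in CCNA-GFP cells, and Mir155hg at 90 min without IAA (-0.019). At 50 min with IAA, uncalled values turned into calls of the other sign for Mirlet7d (-0.75 at the same total and without replicate 1), Mir155hg (-0.20, same total) and Mir290a (0.57, without replicate 1). Among host genes, E130102H24Rik turned at 90 min in CCNA-GFP cells without replicate 3 (0.19), and Ftx at the same total at 60 min in all 3 series (-0.28, -0.0041 and -0.078), at 40 min in all 3 (-0.32, -0.13 and -0.25) and at 50 min with IAA (-0.053). The same total also left 6 microRNA genes called higher at 60 min in CCNA-GFP cells, and 1 called with against without IAA. With the replicate block, 2 were called with against without IAA. Without the replicate block, 12, 10 and 10 were higher at 60 min in CCNA-GFP cells, without IAA and with IAA (78.1%, 72.8% and 70.4% of all genes), and 8, 7 and 8 in asynchronous cells (46.7%, 11.6% and 17.3%). Leaving out 1 replicate gave 6 to 10 higher in asynchronous cells without IAA, the 6 without replicate 3, and at 60 min and in asynchronous cells the other counts of higher members stayed within 1.5 times. At other stages the count of higher members moved by more at 40 min in CCNA-GFP cells (4 without replicate 1, without the replicate block or at the same total, against 7), at 40 min with IAA (6 against 10, same total, beside 33.2% of all genes), at 90 min without IAA (8 without replicate 3 and 7 at the same total, against 13) and in CCNA-GFP cells (6 against 11, same total, beside 31.8%), and at 120 min in CCNA-GFP cells (6 against 12, same total) and without IAA (7 without the replicate block or at the same total, against 12). Without replicate 2, 2 members were higher and 2 lower at 20 min (0.474% and 0.0807% of all genes) and 3 higher at 30 min (3.12%) in CCNA-GFP cells, and 1 higher at 20 min without IAA (0.0488%). Without replicate 1, 1 was lower at 30 min in CCNA-GFP cells (0.0202%). On leaving out 1 replicate, the count of lower members moved by at most 1, except without replicate 2 at 20 and 90 min in CCNA-GFP cells (2 and 3, against 0 and 1) and without replicate 3 at 40 min without IAA (0 against 2). With a mean of at least 1 TPM, 1 was higher at 30 min in CCNA-GFP cells (2.75%). Where leaving out a replicate left 1 library at a stage, that library was taken to vary like the other groups. Without replicate 2, Mir124a-1hg was called at 90 min between arms (adjusted p = 0.0544), a difference that the filter in part fixed. The depth behind these TPM is unknown, so counting error could not be set beside any value.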
